A study of Mus musculus with 11 samples.

Results

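The RIKEN testis clone genes are loci that still bear the name of a full-length cDNA clone, and the clones of the 4 series described here came largely from mouse testis libraries. Members were taken as every gene in the count table whose GENCODE vM21 symbol ends in Rik and begins with the same 4 digits as 4930444P10Rik, 4931428L18Rik, 4932438H23Rik or 4933416C03Rik, which gave 164 of 23074 genes. In that order, the series held 104, 16, 8 and 36 genes. The annotation called 123 of them protein coding and 41 something else (lincRNA, antisense, processed transcript, pseudogene or TEC, a class still to be checked by experiment). GENCODE vM21 holds 834 genes with such symbols, in the counts or not, so most are absent here. The study built its gene models from coding isoforms, so the coding share is not that of the clone series at large. RefSeq knew 17 by another name, for example 4933416C03Rik as Taf7l2, 4933415F23Rik as Ppp1r14bl and 4930452B06Rik as Cfap20dc.

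The study sequenced RNA of whole decapsulated testes at postnatal day 21 from 5 wild type mice (replicates 1 to 5) and 6 Rfx2-/- mice (replicates 6 to 11), on a mixed background of C57BL/6, 129/Sv and FVB/N. Rfx2-/- mice lack, in every tissue, the Rfx2 exon that encodes most of the DNA-binding domain; it was flanked by loxP sites and removed with an ACTB-cre transgene, and the study describes a line on a mixed background that kept the neomycin cassette, but the labels do not say whether these mice carried it. The comparison asks which transcripts depend on the RFX2 transcription factor in juvenile testis. In bulk tissue, fewer cells of a type and less RNA per cell cannot be told apart. Libraries held 22232097 to 29769483 counts. Wild type replicates 3 and 5 were the lowest of the 11 mice in round spermatid markers, in pachytene spermatocyte markers and in the median member. Results that rest on them are therefore also given without both, a fit chosen after seeing the data. The count of Rfx2 itself covers the whole gene and so does not check the deletion: it was 191 to 472 CPM (counts relative to library size, scaled by TMM) in wild type and 282 to 325 CPM in Rfx2-/- testes.

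Spermatogenesis begins with dividing spermatogonia, passes through the long meiotic prophase of spermatocytes and ends with haploid spermatids that build an acrosome and a flagellum. Many genes are transcribed mainly in spermatocytes and spermatids, which is why so many clones of these libraries marked genes first met in testis and long left without a functional name. RFX factors bind the X-box, an inverted repeat of GTTGCC-like arms, and are best known for controlling genes of cilia and flagella.

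Most members were expressed but not strongly. After removal of genes with too few counts, 120 members (95 protein coding, 25 not) could be tested among 15745 genes, and their mean wild type level ran from 0.186 to 105 RPKM (CPM per kilobase of merged exon) with a median of 4.26. 6 members reached 50 RPKM, 36 reached 10 RPKM and 22 lay under 1 RPKM. At an adjusted p of at most 0.01 (edgeR's quasi-likelihood test, Benjamini-Hochberg over all tested genes), 2 members fell in Rfx2-/- testes, both more than 2-fold, and none rose. Over all tested genes, 1.94% were called lower and 0.73% higher, together 2.67%, and 1.04% and 0.216% when a change of more than 2-fold was also required, beside 2 of 120 members (1.67%) by either rule. At an unadjusted p of at most 0.05, 34 members (28.3%) passed against 41.8% of all tested genes.

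How many members were called varied with the method, as it did for genes at large. DESeq2's Wald test called 9 members lower and 4 higher at an adjusted p of at most 0.01, against 5.72% and 7.57% of all genes it tested. limma voom with quality weights called 9 lower and 1 higher (4.33% and 2.33% of all tested genes). With total counts in place of TMM library sizes, edgeR called 6 lower and 0 higher (2.76% and 0.616%), and at an unadjusted p of at most 0.01 the TMM fit passed 7 and 5 (10.2% and 7.49%). 4930512B01Rik and 4930444P10Rik were called lower by all of these. With wild type replicates 3 and 5 both left out, 132 members could be tested, and edgeR called 7 lower and 0 higher (2.72% and 1.06% of all tested genes). The 7 were these 2 and 4930524N10Rik, 4930564D02Rik, 4931428L18Rik, 4932438H23Rik and 4933407L21Rik. Of these, 4930524N10Rik could not be tested with all mice. 4930524N10Rik and 4930512B01Rik, nearly without counts in Rfx2-/- testes, passed the count filter only through the wild type mice, where they are higher.

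4930444P10Rik fell to the largest extent among the tested protein coding members. This gene of no assigned function (ENSMUSG00000067795, GRCm38 chr1:16065979-16093325, minus strand) stood at 46.3, 36.1, 12.6, 33.4 and 13.8 CPM in the wild type mice (replicates 1 to 5), and in Rfx2-/- replicates 6 to 11 at 2.95, 3.63, 1.02, 0.845, 2.43 and 1.87 CPM. The lowest wild type mouse was thus above every Rfx2-/- mouse, although replicates 3 and 5 lay well below the other wild type mice. The means were 28.4 ± 14.7 CPM (SD, n = 5) and 2.13 ± 1.09 CPM (SD, n = 6), a log2 fold change of -3.73 (SE 0.47, adjusted p = 0.000879 in edgeR's quasi-likelihood test). No other annotated exon overlaps it, no tested gene starts near it on the other strand, and the study's ChIP-Seq of RFX2 in wild type germ cells did not list its promoter as bound.

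4930512B01Rik was nearly silent in Rfx2-/- testes. It is annotated as a processed transcript, hence non-coding (ENSMUSG00000020992, GRCm38 chr12:69790288-69840479, plus strand). Wild type replicates 1 to 5 held 3.35, 2.93, 0.852, 2.77 and 0.597 CPM. In Rfx2-/- testes 5 of 6 mice had no count at all and replicate 7 had a single count (0.0413 CPM), so the genotypes did not overlap. The wild type mean was 2.10 ± 1.27 CPM (SD, n = 5). Pooled over mice, 310 counts in wild type stood against 1 in Rfx2-/- testes, a ratio of 281 per effective library size with an exact 95% interval of 50.1 to 11100 that covers counting error only. The adjusted p was 0.00028 (edgeR's quasi-likelihood test), for a gene that met the count filter through wild type mice only. Without Rfx2-/- replicate 7 the adjusted p was 0.0108, just past the threshold. The promoter of 4930512B01Rik carried an RFX2 peak in the study's ChIP-Seq list.

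The head of 4930512B01Rik lies against that of Cdkl1, a cyclin-dependent kinase-like gene with known roles at cilia. Cdkl1 is transcribed from the minus strand and starts 979 bp inside 4930512B01Rik, and 417 of the 4603 exon bases of 4930512B01Rik lie within its exons in GENCODE vM21. The exons over which the study counted reads may differ. Cdkl1 itself averaged 13.9 ± 6.94 CPM (SD) over the 5 wild type mice and 0.398 ± 0.137 CPM over the 6 Rfx2-/- mice, with a log2 fold change of -5.11 and adjusted p = 4.88e-05 (edgeR's quasi-likelihood test). Map4k5, a MAP kinase kinase kinase kinase gene that shares another 139 exon bases with 4930512B01Rik further downstream on the minus strand, stood 0.15 higher on the log2 scale (adjusted p = 0.0954). The library kit did not mark strand, so reads of opposite partners cannot be told apart except that reads over exons of more than 1 gene were left out of the counts.

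The RefSeq promoter window of 4930512B01Rik (GRCm38.p6 chr12:69790094-69790393, plus strand, from 250 bases before the RefSeq start to 50 after it) is shown because it is the only window of a called member that the study listed as bound. The X-box was searched as GTTNCC and GGNAAC with 2 bases between these arms, and also with 1 or 3 bases between them. The capitals mark the stretch nearest to these letters in the window, which has 3 bases between the arms, matches 8 of its 10 fixed letters and is centred 31 bases after the start.
4930512B01Rik promoter: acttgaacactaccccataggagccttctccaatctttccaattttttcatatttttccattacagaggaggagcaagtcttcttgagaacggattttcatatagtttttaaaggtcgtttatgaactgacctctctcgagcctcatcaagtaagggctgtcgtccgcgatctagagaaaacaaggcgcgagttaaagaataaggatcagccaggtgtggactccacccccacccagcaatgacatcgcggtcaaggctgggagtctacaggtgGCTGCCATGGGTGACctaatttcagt
A stretch of at most 2 mismatches at any of the 3 spacings occurred in 29.7% of 32851 RefSeq promoter windows, and the search over all spacings with mismatches was added after this window had been read. 4930444P10Rik had no promoter sequence at hand.

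**Figure D1:**
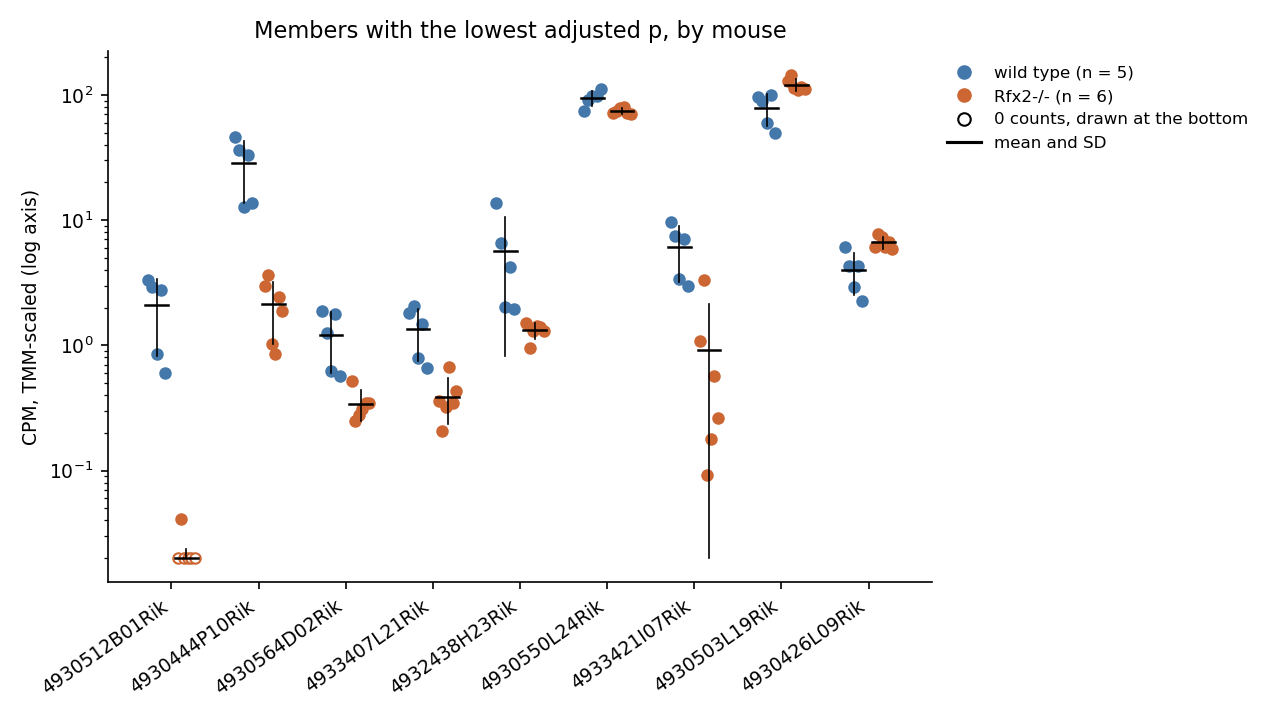
CPM (TMM-scaled, log axis) of the 9 members with an adjusted p of at most 0.05, 1 point per mouse, with wild type in blue, Rfx2-/- in orange, horizontal lines for means and vertical lines for SDs; mice without counts are open points at the bottom, where SD lines that reach lower also end. 4930512B01Rik and 4930444P10Rik show the widest gaps between genotypes, and wild type replicates 3 and 5 are the lowest blue points of 8 of the 9 genes.

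A wider threshold added members with smaller or more variable differences. At an adjusted p of at most 0.05, 7 members were lower and 2 higher, against 8.78% and 6.15% of all tested genes. The members in this range are named because they passed that second threshold, which was chosen with their values known.

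Among these, 4930564D02Rik (protein coding, chr3) was at 0.566 to 1.87 CPM in wild type and 0.248 to 0.519 CPM in Rfx2-/- testes, without overlap (log2 fold change -1.81, SE 0.36, adjusted p = 0.0125). 4932438H23Rik (protein coding, chr16) was at 13.7, 6.56, 2.02, 4.21 and 1.95 CPM in wild type mice 1 to 5 and at 0.95 to 1.52 CPM in Rfx2-/- testes (log2 fold change -2.11, SE 0.47, adjusted p = 0.0204). The genotypes did not overlap for 4932438H23Rik either, but the wild type mice spread over a far wider range than the Rfx2-/- mice. 4933407L21Rik (protein coding, chr1) had wild type values of 0.66 to 2.05 CPM and Rfx2-/- values of 0.206 to 0.667 CPM, which touched (log2 fold change -1.78, SE 0.36, adjusted p = 0.0135). Its 3' part overlaps Gpr55, a G protein-coupled receptor gene on the other strand, whose log2 fold change was -0.28 (adjusted p = 0.183).

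4933421I07Rik (protein coding, chr7) was the member of this range with the largest fold. It was at 9.72, 7.43, 3.38, 7.01 and 2.95 CPM in wild type replicates 1 to 5. In Rfx2-/- replicates 6 to 11 it was at 1.08, 3.30, 0.0925, 0.178, 0.565 and 0.261 CPM, so that replicate 7 alone reached the wild type range. The log2 fold change was -2.72 (SE 0.77, adjusted p = 0.0407). Its RefSeq promoter holds an exact X-box with 1 base between the arms, 31 bases before the start, although the ChIP-Seq list does not carry it. That stretch, GRCm38.p6 chr7:42448119-42448147 on the minus strand, is shown with the X-box in capitals.
4933421I07Rik: gaatgctgGTTACCAGGTAACcagaggcc
The exact letters with 1 base between the arms (both strands) stood in 0.271% of all promoter windows and in 2 windows of members, the other being 4930449I24Rik with a log2 fold change of 1.60 (SE 0.95, adjusted p = 0.21), or 0.88 without wild type replicates 3 and 5. The stretch of 4930449I24Rik has the same bases as the one shown, flanks included, so the 2 windows may not be separate occurrences. If the genes are close copies, their counts are uncertain, which was not tested.

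The remaining members at this threshold, 4930550L24Rik, 4930503L19Rik and 4930426L09Rik, differed by less. The X-linked 4930550L24Rik was at 74.9 to 112 CPM in wild type and 70.5 to 79.4 CPM in Rfx2-/- testes (log2 fold change -0.35, SE 0.09, adjusted p = 0.0288), and its log2 fold change was -0.23 without wild type replicates 3 and 5 (adjusted p = 0.104 in edgeR). 4930503L19Rik, which starts 55 bp from the lipid-binding START domain gene Stard6, was at 49.8 to 99.4 CPM in wild type and at 108 to 144 CPM in Rfx2-/- testes, without overlap (log2 fold change 0.60, SE 0.18, adjusted p = 0.0449). Without wild type replicates 3 and 5 the log2 fold change of 4930503L19Rik was 0.35 (adjusted p = 0.0441 in edgeR). Stard6 stood 0.59 higher on the log2 scale (adjusted p = 0.108). 4930426L09Rik was at 2.26 to 6.06 CPM against 5.83 to 7.68 CPM (log2 fold change 0.74, SE 0.22, adjusted p = 0.0475), and without wild type replicates 3 and 5 its log2 fold change was 0.45 (adjusted p = 0.0945 in edgeR). The pseudogene 4932415M13Rik, the only tested member within 10 Mb of Rfx2 on chromosome 17, lay just past this threshold (adjusted p = 0.051 in edgeR). Its log2 fold change was 1.43 (SE 0.44), or 0.94 without wild type replicates 3 and 5. As a processed copy it may share reads with its parent gene.

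The other 111 tested members had larger adjusted p values, and over all 120 the fold changes leaned upward in a way that rested on wild type replicates 3 and 5. Over the 120, 82 had a log2 fold change above 0 and 38 below, or 68.3% above 0 against 45.2% of all tested genes, and the median was 0.36 against -0.05. With these mice both left out, 60 of 132 members (45.5%) were above 0 against 47.5% of all tested genes, and the medians were -0.02 and -0.01. The 132 are not the same set as the 120. They include members, such as 4930524N10Rik and 4930480E11Rik, that the count filter passed only without these mice, and most of those were below 0. In the fit on all mice, the log2 fold change of 102 of the 120 members lay between -1 and 1, with 8 above and 10 below. The median SE was 0.344 and the highest 1.52. The genotypes did not overlap in 4 members with Rfx2-/- lower and 7 with Rfx2-/- higher, against 5.2% and 6.5% of all tested genes, and without wild type replicates 3 and 5 in 13 and 7, against 8.58% and 6.96%. With all mice, the 4 are 4930512B01Rik, 4930444P10Rik, 4930564D02Rik and 4932438H23Rik, and the 7 are 4930503L19Rik, 4933440M02Rik, 4933412E24Rik, 4933416C03Rik, 4930503E14Rik, 4930524B15Rik and 4933409G03Rik. By clone series, in the order given above, the medians were 0.38, 0.17, 0.19 and 0.42.

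**Figure D2:**
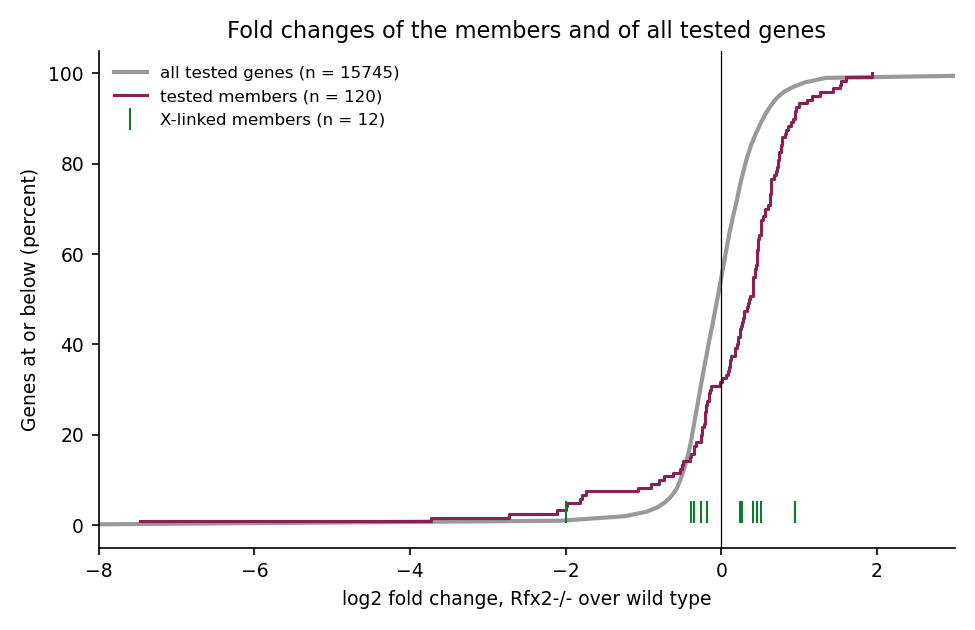
Share of genes (percent) at or below each log2 fold change of Rfx2-/- over wild type, for the 120 tested members (stepped line) and all 15745 tested genes (grey line, which runs beyond the frame), with the 12 X-linked members as ticks. The line of the members lies to the right of the grey line over most of its height, with medians of 0.36 and -0.05, and to the left of it among the lowest values. Without wild type replicates 3 and 5 the medians were -0.02 over the 132 members tested then and -0.01 over all genes.

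Of the 5 most abundant members, 4 had higher means in Rfx2-/- testes without passing the threshold. 4930544G11Rik had the highest level per length, 105 RPKM in wild type, and stood at 234, 188, 74.0, 187 and 57.3 CPM in wild type mice 1 to 5 and 227 to 386 CPM in Rfx2-/- testes (log2 fold change 1.0, SE 0.34, adjusted p = 0.0646). 4933416C03Rik, a relative of the TFIID subunit gene Taf7, was at 95.7 RPKM in wild type. Its 138 to 274 CPM in wild type and 284 to 347 CPM in Rfx2-/- testes did not overlap (log2 fold change 0.56, SE 0.19, adjusted p = 0.0592). 4933415F23Rik, named Ppp1r14bl for its likeness to an inhibitor of protein phosphatase 1, was at 93.3 RPKM in wild type, with 76.7 to 251 CPM there and 248 to 375 CPM in Rfx2-/- testes (log2 fold change 0.90, SE 0.29, adjusted p = 0.058). 4930524B15Rik was at 57.4 RPKM in wild type, with 87.3 to 135 CPM against 136 to 149 CPM (log2 fold change 0.29, SE 0.11, adjusted p = 0.0734). In the fit lacking wild type replicates 3 and 5, the log2 fold changes of these 4 were 0.55, 0.28, 0.49 and 0.13.

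The fifth of the abundant group had a lower mean in Rfx2-/- testes. The X-linked 4933402E13Rik, at 84.2 RPKM in wild type, was at 112, 162, 186, 191 and 202 CPM in wild type mice 1 to 5 and at 119 to 146 CPM in Rfx2-/- testes (log2 fold change -0.39, SE 0.13, adjusted p = 0.0633). Here wild type replicate 1 was the lowest and replicate 5 the highest of the wild type mice. The log2 fold change was -0.24 without wild type replicates 3 and 5 (adjusted p = 0.334 in edgeR) and -0.51 without wild type replicate 1, where edgeR called it lower (adjusted p = 0.00433).

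Members with a known meiotic role showed small differences. 4930447C04Rik, which encodes the synaptonemal complex protein SIX6OS1, was at 76.9 to 127 CPM in wild type and 88.7 to 108 CPM in Rfx2-/- testes (log2 fold change -0.16, SE 0.13). 4930432K21Rik, which encodes the meiotic recombination factor BRME1, was at 50.3 to 103 CPM and 94.7 to 121 CPM (log2 fold change 0.47, SE 0.19). Neither passed the test (adjusted p = 0.338 and 0.0911). Without wild type replicates 3 and 5 the log2 fold changes were -0.03 and 0.18. Both were picked here for their known function, after their values were seen.

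**Figure D3:**
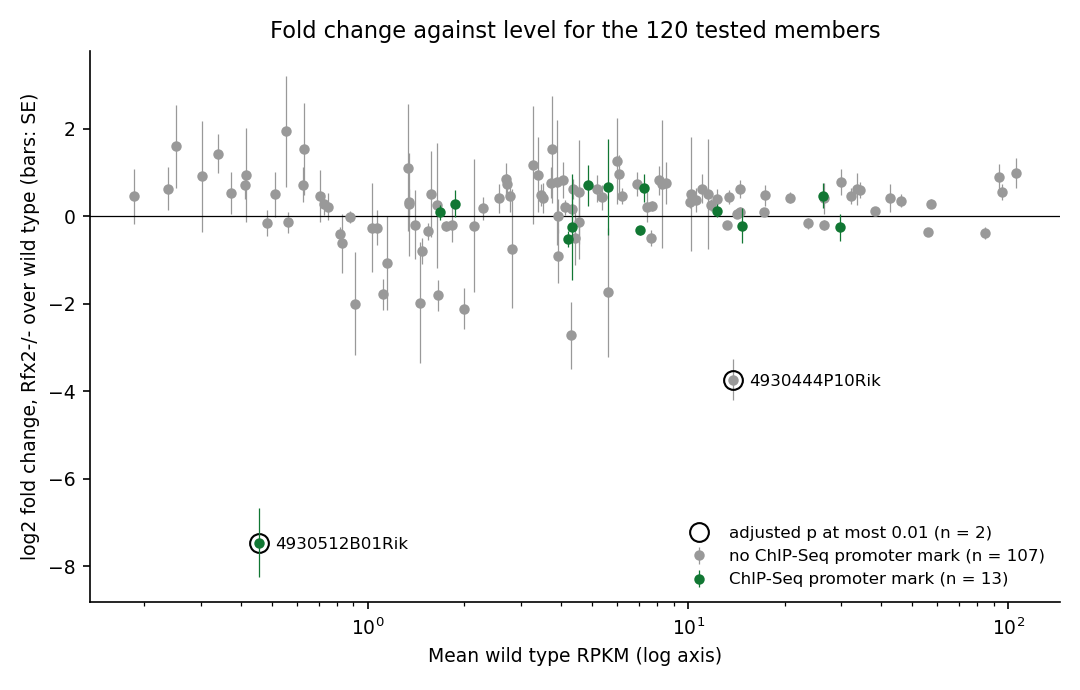
log2 fold change of Rfx2-/- over wild type (bars are SE) against mean wild type RPKM (log axis) for the 120 tested members, with members that the study's ChIP-Seq listed as bound in green and those called at an adjusted p of at most 0.01 ringed. The 2 ringed genes lie at 0.456 and 13.8 RPKM, 12 of the 13 green points lie between -0.52 and 0.71, and the 5 members above 57 RPKM span -0.39 to 1.0.

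The 13 members with an RFX2 peak in their promoter lay on both sides of 0. Their median log2 fold change was 0.09, with 6 below 0 and 7 above. Without wild type replicates 3 and 5 it was -0.12, with 10 below 0. Besides 4930512B01Rik none was called in the edgeR fit on all mice with TMM library sizes and no covariate. In that fit 7.13% of all 940 tested genes with such a peak were called lower, and their median was 0.01. With the round spermatid marker score as a covariate, edgeR also called 4930505A04Rik (adjusted p = 0.00087) and 4931428L18Rik lower. Without wild type replicates 3 and 5 it called 4931428L18Rik lower as well. 4930430A15Rik, a gene of the ankyrin repeat A26 family, was the most abundant of the 12 others at 29.7 RPKM in wild type, with 30.3 to 110 CPM in wild type and 50.3 to 79.8 CPM in Rfx2-/- testes (log2 fold change -0.25, 95% interval -0.85 to 0.36). 4930453N24Rik was at 73.3 to 228 CPM against 153 to 260 CPM (log2 fold change 0.47, 95% interval -0.10 to 1.04). 4933405L10Rik was at 5.63 to 32.4 CPM against 12 to 19.4 CPM (log2 fold change -0.21, 95% interval -0.98 to 0.55). 4933427D14Rik, known in human as the centrosomal gene KIAA0753, was at 47.1 to 87.4 CPM against 68.4 to 73.9 CPM (log2 fold change 0.13, 95% interval -0.16 to 0.41). With all mice, of these 4 intervals that of 4930453N24Rik alone reaches a 2-fold change. In the fit lacking wild type replicates 3 and 5, the log2 fold changes were -0.67 for 4930430A15Rik (adjusted p = 0.0263 in edgeR), 0.08 for 4930453N24Rik, -0.70 for 4933405L10Rik and -0.10 for 4933427D14Rik, and the interval of 4933405L10Rik, -1.08 to -0.32, was then the one that reached a 2-fold change.

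Most of the 13 also had a partner at their start. The start of 8 of them lies within 1 kb of the start of a tested gene on the other strand, compared with 20 of the 107 tested members without a peak. In all 8 pairs the partner was on the ChIP-Seq list as well, so the peak cannot be assigned to either gene of a pair; among the other 20 pairs 1 partner was listed. Among the partners of the 8, Cdkl1 was called lower and the others were not called. 4931428L18Rik starts 154 bp from Pih1d3, a gene for the preassembly of axonemal dynein arms, and the pair had log2 fold changes of -0.52 (SE 0.19, adjusted p = 0.0695) and -0.65 (SE 0.23, adjusted p = 0.0649). 4931428L18Rik was called lower without wild type replicates 3 and 5 (log2 fold change -0.78, SE 0.13, adjusted p = 0.00514 in edgeR).

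X-box letters were then counted in the promoter windows. The exact form with 2 bases between the arms occurred in 4 of the 16 promoter windows of the members with a peak, in 0 of the 127 windows of members without one, and in 0.451% of all 32851 windows (both strands; the letters read the same on either). The half-site GTTGCC occurred in 8 of the 16 windows, in 17 of the 127 (13.4%) and in 12.5% of all windows. Windows of the same gene can overlap, and the 16 belong to 13 members. 4930430A15Rik entered the 8 through overlapping windows that hold the same stretch. The search used RefSeq windows of 120 members. The 4 exact X-boxes of this spacing are shown in capitals with 8 bases on either side, in the direction of the gene. 4933421I07Rik, shown above, and 4930449I24Rik match as many fixed letters, with 1 base between the arms. None of the 4 genes with 2 bases between the arms was called in the edgeR fit on all mice with TMM library sizes. With total counts edgeR called 4930452B06Rik lower, voom called 4930452B06Rik and 4931428L18Rik lower, and the fit with a round spermatid covariate called 4931428L18Rik lower.
4930452B06Rik: gcccctcaGTTGCCTGGGCAACggctcagc
4930550C14Rik: actaagtcGTTACCAAGGAAACagcggaga
4930579K19Rik: ccgccccaGTTTCCTAGGTAACgcggactt
4931428L18Rik: gttgctctGTTGCCTGGGTAACaactttgt
They lie at chr14:8666371-8666400 (minus strand), chr9:53405283-53405312 (plus), chr9:98563610-98563639 (minus) and chr1:31222772-31222801 (minus) of GRCm38.p6, centred 95 bases before, 12 after, 13 before and 130 before the RefSeq start. The window of 4930550C14Rik belongs to a RefSeq start 2961 bp from the annotated one. 4930452B06Rik, whose RefSeq name Cfap20dc places it with the cilia and flagella associated genes, was at 15.8 to 21.2 CPM in wild type and 13.4 to 16.3 CPM in Rfx2-/- testes (log2 fold change -0.32, SE 0.11, adjusted p = 0.0581). 4930550C14Rik had a log2 fold change of 0.64 (SE 0.32, adjusted p = 0.151) and 4930579K19Rik of 0.09 (SE 0.18, adjusted p = 0.707). Both moved without wild type replicates 3 and 5, to 0.22 and -0.10. In that fit 4930452B06Rik was at -0.46 (adjusted p = 0.0113 in edgeR) and 4931428L18Rik at -0.78.

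The wild type mice differed among themselves in most members. Wild type replicates 3 and 5 were the 2 lowest wild type mice in 93 of the 120 members (77.5%), against 36.1% of all tested genes, and replicate 1 was the highest of the 5 in 92. Relative to each gene's wild type mean, the median member stood at 0.89, 0.41, -0.67, 0.18 and -1.02 on the log2 scale in wild type replicates 1 to 5, and at 0.69, 0.85, 0.12, 0.02, 0.52 and 0.41 in Rfx2-/- replicates 6 to 11. The median SD of log2 CPM over members was 0.81 in wild type and 0.31 in Rfx2-/- testes, against 0.28 and 0.16 over all tested genes. In Rfx2-/- testes replicate 7 was the highest of the 6 in 77 members.

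Round spermatid markers were also lowest in wild type replicates 3 and 5, but replicate 4 lay close to replicate 3. The mean log2 CPM of the 10 markers (Acrv1, Spaca1, Tssk1 and others) was 4.98, 3.01, 0.25, 0.66 and -1.0 in wild type replicates 1 to 5, and 4.38, 5.53, 1.05, 1.25, 3.47 and 2.71 in Rfx2-/- replicates 6 to 11. The markers' summed level ran from 9.49 to 428 CPM in wild type and from 33.1 to 656 CPM in Rfx2-/- testes, and no marker was at 0 in any mouse. Pachytene spermatocyte markers, with a summed level of 3794 to 8990 CPM in wild type and 8054 to 10632 CPM in Rfx2-/- testes, averaged 0.81 higher on the log2 scale in Rfx2-/- testes (exact permutation p = 0.0173, adjusted p = 0.13 over 10 marker lists). Their mean log2 CPM was 9.58, 9.27, 8.10, 9.26 and 7.88 in wild type replicates 1 to 5, with replicate 4 beside replicate 2. In Rfx2-/- testes it was 9.39 to 9.86. Sertoli cell markers averaged 0.33 lower (exact permutation p = 0.026, adjusted p = 0.13), and adjusted p was 0.199 or more for the other 8 lists. Without wild type replicates 3 and 5 the pachytene difference was 0.26 (exact permutation p = 0.0952), the Sertoli cell difference -0.17 (exact permutation p = 0.143) and the round spermatid difference 0.18, against 1.49 with all mice. Their part in the fold changes of the members was not tested.

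**Figure D4:**
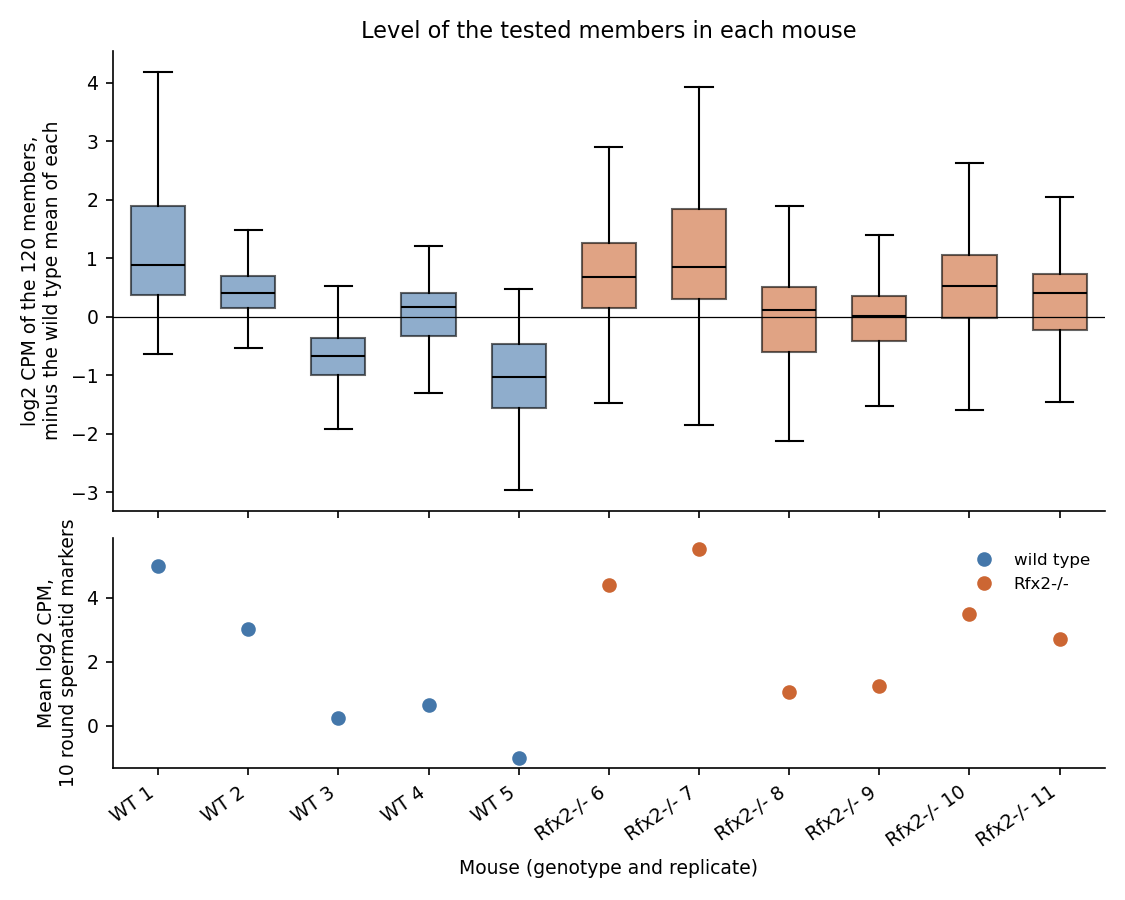
Top, log2 CPM of the 120 tested members in each mouse minus each gene's wild type mean (boxes are quartiles with the median, whiskers reach 1.5 times the interquartile range); bottom, mean log2 CPM of 10 round spermatid markers in the same mice. Wild type replicates 3 and 5 have the lowest boxes (medians -0.67 and -1.02) and the lowest marker values (0.25 and -1.0), and the 6 Rfx2-/- medians lie between 0.02 and 0.85. Wild type replicate 4 has a marker value of 0.66 but a box median of 0.18.

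The spread was widest in members whose level followed the mice most steeply. 4930578I06Rik was at 42.1, 14.9, 0.738, 1.61 and 0.0629 CPM in wild type mice 1 to 5 and at 24.9, 50.6, 1.76, 2.27, 14.3 and 7.75 CPM in Rfx2-/- replicates 6 to 11 (log2 fold change 0.51, SE 1.26). The lincRNA 4930571K23Rik was at 50.4, 8.54, 0.596, 0.841 and 0.0943 CPM in wild type and at 2.59, 17, 0.324, 0.222, 1.04 and 0.479 CPM in Rfx2-/- testes (log2 fold change -1.74, SE 1.48). 4933417A18Rik was at 16.1, 3.97, 0.142, 0.175 and 0 CPM in wild type and at 0.324 to 23.7 CPM in Rfx2-/- testes (log2 fold change 0.77, SE 1.42). All 3 had their highest values in wild type replicate 1 and Rfx2-/- replicate 7 within their genotype. In the fit lacking wild type replicates 3 and 5, the log2 fold changes were -0.20, -2.46 and 0.05, in the order given. With SEs above 1.2 in the fit on all mice a 2-fold difference in either direction was not detectable. In an edgeR fit with the round spermatid marker score, measured in these same libraries, as a covariate, 12 members were called lower and 1 higher (4.2% and 1.82% of all tested genes), and 4930571K23Rik was among the 12 with an adjusted p of 2.57e-05.

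The 12 tested X-linked members lay on both sides of 0. Among them, 5 had a log2 fold change below 0 and the median was 0.26, whereas 535 of 614 tested X-linked genes (87.1%) were below 0 with a median of -0.38. The autosomal members had a median of 0.38 against -0.04 for all autosomal genes. With wild type replicates 3 and 5 both left out, 15 of 18 X-linked members were below 0 with a median of -0.46, and the autosomal members had a median of 0.003. Over all X-linked genes, 539 of 614 were then below 0 with a median of -0.16. The X-linked genes numbered 614 in both fits, whereas the X-linked members rose from 12 to 18. The members and this background may therefore not be filtered alike. The 18 are not the same set as the 12. They include members that the count filter passed only without these mice, such as 4930402K13Rik, 4930480E11Rik and 4930524N10Rik, at -2.70, -2.82 and -7.55. 4930524N10Rik, nearly without counts in Rfx2-/- testes, passed only through wild type mice. The median of -0.46 thus cannot be set against that of the 12 or of the 614. In the fit on all mice, the abundant X-linked members 4930550L24Rik, 4933402E13Rik and 4930502E18Rik (the cancer/testis gene Ct55) were below 0, at -0.35, -0.39 and -0.19. In all 3, wild type replicate 1 was the lowest of the wild type mice. Low X-linked members such as 4933436I01Rik, at 9.02, 2.49, 0.142, 0.035 and 0 CPM in wild type replicates 1 to 5, were instead highest in wild type replicate 1 (log2 fold change 0.25, SE 1.43, or -0.48 without wild type replicates 3 and 5). 4932411N23Rik, at 0.0943 to 9.44 CPM in wild type and 0 to 2.31 CPM in Rfx2-/- testes, had the lowest X-linked value, -2.0 (SE 1.17, adjusted p = 0.207).

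The 25 tested members that are not protein coding had a median log2 fold change of 0.45 with 20 above 0, and the 95 coding members one of 0.27 with 62 above 0. Over all tested genes, those of other biotypes had a median of 0.26 and protein coding genes one of -0.06. Since the study's gene models were built from coding isoforms, the genes of other biotypes in the counts may be a selected part. Among other clone-named genes, 107 tested genes named 1700xxxxxxRik had a median of 0.48, with 7 called lower and none higher. Their difference from the members was not tested. Without wild type replicates 3 and 5 the medians were 0.08 for the 29 members of other biotypes tested then, -0.06 for the 103 coding ones and 0.06 for the 1700xxxxxxRik genes. The 1700xxxxxxRik genes numbered 107 in both fits while the members increased, so these medians may not rest on the same filter.

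Of the 44 members that could not be tested, 7 had at most 3 counts in every mouse, and 4930583I09Rik had none in any. 19 had more than 20 counts in some mouse. 4930524N10Rik, a spermatogenesis-associated multipass membrane gene on the X chromosome (Samt2b), had 127, 58, 6, 12 and 0 counts in wild type replicates 1 to 5, and 0 in the Rfx2-/- mice except a single count in replicate 7. Wild type replicate 5 thus overlapped the Rfx2-/- mice. Members of this family are close copies, so its reads are uncertain. Without the filter it had an adjusted p of 0.0225 in edgeR's quasi-likelihood test and of 0.000195 in DESeq2. 4933402D24Rik was at 0.157 to 3.24 CPM in wild type and 0.0435 to 0.239 CPM in Rfx2-/- testes, with adjusted p = 0.0534 in the unfiltered edgeR fit and 0.00743 in DESeq2. 4930407I10Rik had 463 counts in wild type replicate 1 and 604 in Rfx2-/- replicate 7, and at most 59 in any other mouse.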

How the data were processed

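Gene-level read counts of the deposited table were used as they stood. Per the submitters' processing notes the authors used CASAVA 1.8.2, STAR 2.4 and featureCounts 1.4.6; their methods describe single reads of TruSeq libraries on Ensembl GRCm38, removal of reads that map to several places, and removal of reads over exons of different genes, so close copies and overlapping genes may be undercounted. The methods name different aligners and read lengths in different paragraphs, and DESeq as the test. Libraries held 22232097 to 29769483 counts, and intervals and floors cover counting or replicate error as stated.

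Symbols and coordinates came from GENCODE vM21 (GRCm38), and 781 gene IDs without a symbol there could not be assessed. Exon lengths for RPKM and exon overlaps also came from it, whereas the counts rest on the study's own Ensembl gene models, whose exons may differ. Counts were filtered with filterByExpr by genotype, scaled by TMM and tested with edgeR 4.0.16 (glmQLFit and glmQLFTest, R 4.3.3) in all 11 mice without covariates, with Benjamini-Hochberg adjustment over all tested genes. The procedure was tested on simulated data. CPM values use TMM library sizes, and log2 CPM a prior count of 2. Intervals are the log2 fold change with 1.96 SE. Marker lists of 10 cell types were compared by a two-sided exact permutation test over 462 splits of the mice, which can give no p below 0.00433. Of 8 RFX genes, 7 could be tested and none was called at an adjusted p of at most 0.01; Rfx5 had the lowest value, 0.0381. X-box letters were searched in RefSeq promoter windows (GRCm38.p6), matched by symbol.

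The members and lists were chosen with earlier results of these data known. Members named were those called at an adjusted p of at most 0.01, the 5 of highest wild type RPKM, the 4 most abundant uncalled ones with an RFX2 peak, called ones within 10 Mb of Rfx2 (none), and the 3 of largest wild type SD of log2 CPM at 1 CPM or more; others were added after their values were seen. RFX2 peaks enter only as membership of the study's list of promoters. Where the labels do not say that mice came from separate litters, p-values measure the spread between these mice. Alternatives were DESeq2 1.42.0 (size factors, Wald test), total counts, limma 3.58.1 (voom with quality weights), other filters and thresholds, a round spermatid covariate and leaving out each mouse. Leaving out wild type replicates 3 and 5 together was added after seeing the data. Protein sequences were not used here.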

Additional observations from a re-analysis of the deposited data

Results flagged for a closer look

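In 8 of the 60 groups checked, 1 mouse lay apart from the other mice of its genotype by Dixon's gap criterion, where chance alone gives about 1 in 20 groups not chosen for their spread. That rate does not hold here, since 4930571K23Rik and 4933417A18Rik were named for their wide spread in wild type and a single count among zeros always meets the criterion. In Rfx2-/- testes replicate 7 held the only count of 4930512B01Rik (0.0413 CPM, all others 0). 4930571K23Rik was highest in wild type replicate 1 at 50.4 CPM (others 0.0943 to 8.54) and in Rfx2-/- replicate 7 at 17 CPM (others 0.222 to 2.59). 4930505A04Rik, a member with an RFX2 peak in its promoter, was likewise highest in wild type replicate 1 at 14.4 CPM (others 0.157 to 4.2) and in Rfx2-/- replicate 7 at 12.1 CPM (others 0.277 to 3.75). 4933417A18Rik was highest in wild type replicate 1 at 16.1 CPM (others 0 to 3.97). 4933421I07Rik was highest in Rfx2-/- replicate 7 at 3.30 CPM (others 0.0925 to 1.08), and 4930564D02Rik in Rfx2-/- replicate 6 at 0.519 CPM (others 0.248 to 0.348). The highest round spermatid marker values within each genotype were those of wild type replicate 1 (4.98) and Rfx2-/- replicate 7 (5.53). Their part in these gaps was not tested.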

How the results depend on the processing

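4930444P10Rik was called in all 19 alternatives (log2 fold change -4.23 to -3.49) and 4930512B01Rik in 17 of 18, all but the fit without Rfx2-/- replicate 7. The number of members called lower (2) and higher (0) was 6 and 0 with total counts as library sizes (5 lower more than 2-fold), 9 and 4 with DESeq2 (8 and 1 more than 2-fold), 9 and 1 with voom (6 and 1), 1 and 0 at a mean count of at least 50 (1 and 0), and 12 and 1 with the round spermatid covariate (11 and 1). With wild type replicates 3 and 5 both left out, chosen after seeing the data, it was 7 and 0 (6 and 0). It was 7 and 2 at an adjusted p of 0.05 (6 and 0) and 7 and 5 at an unadjusted p of 0.01 (6 and 1). Leaving out 1 mouse gave 2 to 4 lower (4 without wild type replicate 1 or 5), 0 to 1 higher (4932415M13Rik, without wild type replicate 1), and 2 to 4 lower and 0 to 1 higher more than 2-fold. All other tools called larger shares of all genes too, and the cause was not tested. Shares of all genes are not given for the mean count filter or for leaving out 1 mouse. They are also not given for calls of more than 2-fold outside the main comparison. The counts called in those settings cannot be read as a trait of the members. Members without overlap numbered 8 lower with total counts, 2 at a mean count of at least 50 and 13 without wild type replicates 3 and 5. They numbered 4 to 7 lower (7 without Rfx2-/- replicate 9) and 7 to 17 higher (17 without wild type replicate 1) with 1 mouse left out. Over all tested genes the shares were 5.2% lower and 6.5% higher with all mice, and 8.58% and 6.96% without wild type replicates 3 and 5. Shares for the other settings are not given here, so these counts cannot be read as a trait of the members. The median log2 fold change was 0.17 to 0.65 with 1 mouse left out and -0.023 without wild type replicates 3 and 5. Leaving out both also turned 4933427D14Rik to -0.10, 4930578I06Rik to -0.20, 4930415O20Rik to -0.017, 4930507D05Rik to -0.12 and 4930579K19Rik to -0.10. Without wild type replicates 3 and 5 the marker difference was 0.26 for pachytene spermatocytes, -0.17 for Sertoli cells, -0.43 for late spermatids, 0.013 for early meiotic cells and 0.32 for peritubular cells. With 1 mouse left out, the marker differences ranged from -0.39 to -0.20 for spermatogonia, -0.42 to -0.26 for Sertoli cells, -0.14 to 0.12 for peritubular cells, -0.48 to -0.27 for macrophages and -0.48 to -0.23 for endothelium. Total counts moved the median of all tested genes from -0.05 to -0.22 and turned 4933427D14Rik to -0.010 and 4930579K19Rik to -0.055. The covariate turned 4930578I06Rik to -0.22, 4933417A18Rik to -0.037 and 4930415O20Rik to -0.13. With 1 mouse left out, 4933405L10Rik ranged from -0.43 to 0.12 and 4930571K23Rik from -3.68 to 0.52 (both positive without wild type replicate 1), 4930578I06Rik from -0.22 to 1.97 and 4933417A18Rik from -0.17 to 2.70 (both negative without Rfx2-/- replicate 7), and 4930505A04Rik from -1.34 to 1.37 (0.0004 without Rfx2-/- replicate 9). None of these was called in the main comparison. No paired analysis was possible because wild type replicates 1 to 5 and Rfx2-/- replicates 6 to 11 share no replicate number.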
